A study of Homo sapiens with 12 samples.

Results

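The Janus kinases (JAKs) and the signal transducers and activators of transcription (STATs) were examined in 3 human lung adenocarcinoma cell lines. The members were JAK1, JAK2 and TYK2 among the kinases and STAT2, STAT3, STAT4, STAT5A, STAT5B and STAT6 among the transcription factors, 9 genes in all. They were found by the gene name that the array's design gives each probe, which picked 11 of 50599 probes: 2 each for STAT3 and STAT4 and 1 for each other gene. Other genes of these families were not analysed here. A549 and PC14 are established lines, and PC14CDDP is a cisplatin-resistant line derived from PC14. Each line was transfected at 25 nM with pre-miR-197 (a mimic that supplies the microRNA miR-197), its negative control NC, LNA-miR-197 (a locked nucleic acid that blocks miR-197) or its negative control LNA-NC, and 100 ng of total RNA of each transfection was hybridized to 1 one-color Agilent 60-mer array. This gave 12 arrays, 4 for each line and 3 for each transfection. The samples called NC here are labelled AllStar-NC, and those called LNA-NC are labelled LNA-miR-NC. Whether AllStar-NC is the same type of oligonucleotide as pre-miR-197 is not stated in the sources used here. Comparisons with NC may therefore also set different types of oligonucleotide against each other, and the effect of this was not tested. No transfection was repeated within a line, and each line is a single culture model, so the 3 lines served as the replicates of a transfection and the 4 transfections as the arrays of a line.

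A cytokine or growth hormone receptor has no kinase of its own and relies on a pair of JAKs bound to its cytoplasmic tail. Once the ligand brings the receptor chains together, the JAKs phosphorylate the receptor and then the STATs that dock on it, and the phosphorylated STATs pair up and enter the nucleus. STAT2 acts mainly downstream of type I interferons with the kinase TYK2, STAT3 downstream of interleukin-6-type cytokines, STAT4 downstream of interleukin-12, STAT5A and STAT5B downstream of growth hormone, prolactin and several interleukins, and STAT6 downstream of interleukin-4 and interleukin-13. An expression array measures their mRNA and not their phosphorylation, so none of the values below is a measure of the activity of the pathway.

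The sequences that the measurements depend on are given first, because the same gene was read at different places by different probes. The mature miR-197 that the mimic and the inhibitor act through is hsa-miR-197-3p, taken from RefSeq (GRCh38.p14, chr1:109598940-109598961, plus strand), and its seed at bases 2 to 8 is in capitals.
hsa-miR-197-3p: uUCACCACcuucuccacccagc
A site paired to the whole seed would read GTGGTGA, and none of the 11 member probes holds these letters. A probe covers 60 bases only, so this says nothing about the rest of a transcript. Probe 1 of STAT3, both probes of STAT4 and the probe of TYK2 are shown as printed on the array, since STAT3 and STAT4 were each read at 2 places and the TYK2 probe joins separated parts of its gene. Probe 2 of STAT3 lies at chr17:40465923-40465982 on the same strand. They lie on hg19, on the minus strand, at chr17:40474404-40474463, chr2:191895703-191895762, chr2:192011381-192011440 and chr19:10464877-10465213 in the order below.
STAT3 probe 1: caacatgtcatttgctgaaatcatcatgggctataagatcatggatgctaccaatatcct
STAT4 probe 1: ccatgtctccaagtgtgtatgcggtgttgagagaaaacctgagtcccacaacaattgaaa
STAT4 probe 2: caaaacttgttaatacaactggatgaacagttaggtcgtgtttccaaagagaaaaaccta
TYK2: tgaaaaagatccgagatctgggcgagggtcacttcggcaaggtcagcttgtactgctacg
The TYK2 probe of 60 bases spans 337 bases of the chromosome, so it joins sequence from both sides of an intron and cannot pair in full with unspliced RNA. STAT6, the member with the largest change between the related lines, was read by 1 probe at chr12:57489651-57489710 on the minus strand of hg19. The 250 bases before the RefSeq start site of STAT6 (GRCh38.p14, chr12:57110290-57110539, minus strand) are shown as the context of that gene, with its 11 CG pairs in capitals. The whole 300-base promoter of STAT6 holds 12 CG pairs, and the median of all 35116 promoters of this length is 14.
STAT6 promoter: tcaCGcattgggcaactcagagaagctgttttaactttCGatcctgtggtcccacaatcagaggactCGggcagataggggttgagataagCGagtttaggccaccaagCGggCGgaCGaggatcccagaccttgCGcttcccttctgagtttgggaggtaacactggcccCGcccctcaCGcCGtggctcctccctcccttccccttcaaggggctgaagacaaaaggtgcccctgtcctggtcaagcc

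Levels are the log2 of a probe's processed signal after division by the 75th percentile of its array, so that 0 is the signal of a probe brighter than 75 in 100 spots. A level compares arrays for the same probe and not one gene with another. That percentile was 613 to 719 units of signal, and 55.8% to 63.1% of probes were well above background per array. All A549 arrays were on slide 1 while PC14 and PC14CDDP shared slide 2, so a difference of A549 and one of the slide cannot be told apart. On slide 2 all PC14 arrays were in row 1 and all PC14CDDP arrays in row 2. A difference between these lines and one of the row thus cannot be told apart. A transfection also kept its column of the slide in every line, and these cannot be told apart either. The bulk RNA of a culture does not separate fewer cells expressing a gene from less RNA per cell. Among 6 epithelial markers, KRT7, KRT8, KRT18 and KRT19 were well above background on 4 of 4 arrays of each line, whereas EPCAM and CDH1 were well above background on none of the PC14CDDP arrays. The summed signal of the leukocyte markers tested was 1323 to 1667 units in A549, 505 to 647 in PC14 and 183 to 388 in PC14CDDP, and of 4 fibroblast markers COL1A1 alone was well above background. All 11 member probes passed the filter on dim probes (3 or more of the 12 arrays well above background), but both STAT4 probes passed through A549 alone and the STAT5A probe passed mainly through it.

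The cisplatin-resistant line differed most from its parental line in STAT6, which was 98.1-fold higher in PC14CDDP than in PC14. STAT2 was 1.49-fold and JAK2 1.53-fold higher in PC14CDDP, and STAT3 was lower at both of its probes, by 1.54-fold and 1.47-fold. Of the 11 member probes, 3 were higher and 2 were lower (limma, adjusted p under 0.05), which is 5 of 11 beside 48.8% of all 33714 probes tested in this comparison. The members were therefore called about as often as other probes, with 25.5% of all probes higher and 23.3% lower. The median difference of the member probes was 0.11 on the log2 scale, and that of all probes was 0.04.

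STAT6, the mediator of interleukin-4 and interleukin-13 signals, was near the background in PC14. Its processed signal there was 20.9 units after pre-miR-197, 22.2 after NC, 13.8 after LNA-miR-197 and 28.5 after LNA-NC, and all 4 arrays were well above background. In PC14CDDP the corresponding signals were 2366, 2217, 1020 and 2521 units, and in A549 they were 2089, 2005, 1643 and 2073 units. Every array of PC14CDDP and of A549 was thus brighter than every array of PC14, and the arrays of PC14CDDP and A549 overlapped. The mean level was -5.07 ± 0.46 (SD, n = 4 arrays) in PC14, 1.55 ± 0.55 in PC14CDDP and 1.53 ± 0.21 in A549. The fitted log2 difference of PC14CDDP from PC14 was 6.62 (SE 0.14, limma adjusted p = 6.6e-08), the 71st largest in size of 33714 probes. A549 differed from PC14 by 6.60 (adjusted p = 8.4e-09), and from PC14CDDP by -0.01 (adjusted p = 0.931). The difference depended in size on the background correction, and with normexp it was 4.50 for PC14CDDP and 4.58 for A549. It rests on a single probe, and an exact permutation test of 4 arrays against 4 gave p = 0.0286, the smallest it can give.

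The genes next to STAT6 had smaller differences. NAB2, a corepressor gene whose probe lay 0.489 kb from that of STAT6, had a log2 difference of 0.33 between PC14CDDP and PC14 (limma adjusted p = 0.0405) and of -0.13 between A549 and PC14 (adjusted p = 0.333). NEMP1 on the same side differed by 0.20 between PC14CDDP and PC14 (adjusted p = 0.0922). LRP1 and NXPH4 on the other side differed by 0.02 and 0.08, and neither passed the test (adjusted p = 0.962 and 0.773). SHMT2, a mitochondrial enzyme of serine and glycine metabolism, was higher in PC14CDDP by 0.96, and MYO1A was lower by 1.83. The 6 neighbors of STAT6 were thus between 1.83 lower and 0.96 higher on the log2 scale, beside 6.62 for STAT6. Over the 12 arrays the genes whose level followed STAT6 most closely were ZNF462 and PEX39, with a Pearson's r of 0.997 each. These are the 2 highest values among 24857 genes, they describe a split of the same arrays into PC14 and the rest, and nothing follows from them about a shared control.

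**Figure D1:**
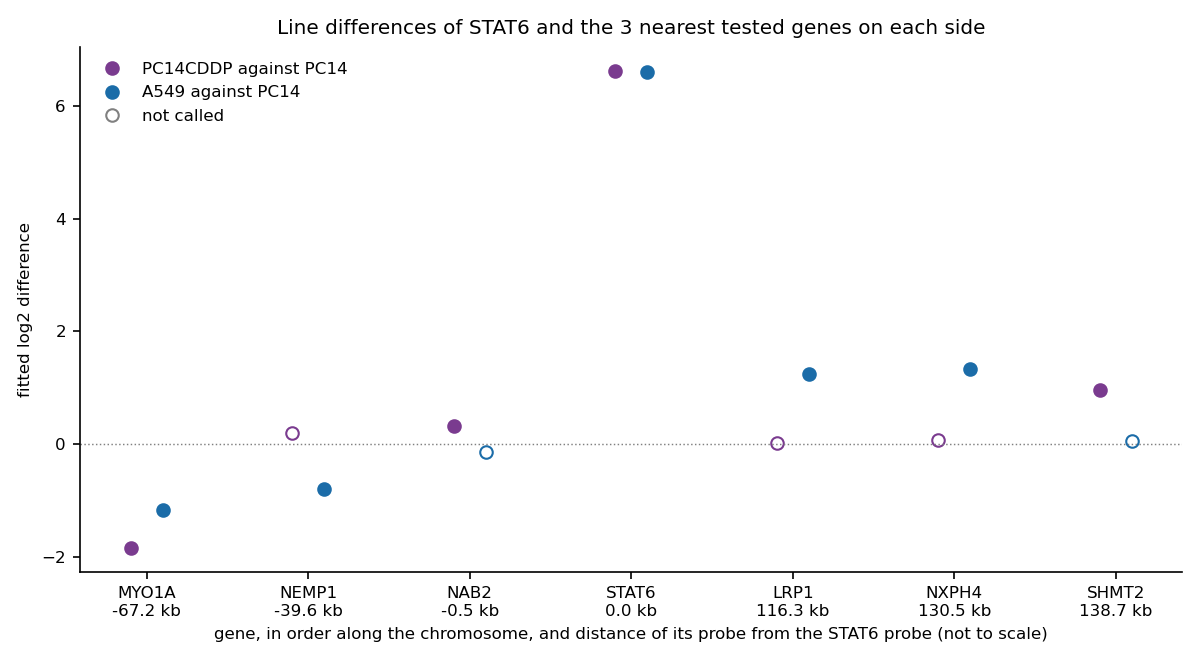
Fitted log2 difference of PC14CDDP and of A549 from PC14 for STAT6 and the 3 nearest named genes with a tested probe on each side, in the order of the chromosome with the distance between probes in kilobases below each name. Filled points passed the test and open points did not. STAT6 stands above 6 in both comparisons, and the neighbors lie between -1.83 and 1.33.

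STAT3, the main effector of interleukin-6-type cytokines, was lower in PC14CDDP at both of its probes. Probe 1 had levels of 0.49, 0.35, 0.36 and 0.13 in PC14 after pre-miR-197, NC, LNA-miR-197 and LNA-NC, and of 0.07, -0.32, -0.54 and -0.36 in PC14CDDP in the same order. The lines did not overlap, although the pre-miR-197 array of PC14CDDP lay just below the LNA-NC array of PC14. Its fitted log2 difference was -0.62 (SE 0.15, limma adjusted p = 0.0102). Probe 2 is printed 10 times on the array, and its repeated spots had an SD of 0.03 to 0.11 on the log2 scale, which describes spots within an array only. Its levels were -1.55, -1.50, -1.83 and -1.78 in PC14 and -2.14, -1.99, -2.73 and -2.02 in PC14CDDP, with a difference of -0.55 (adjusted p = 0.024). The array of PC14CDDP after LNA-miR-197 was the lowest of all at probe 2. Without the NC arrays neither STAT3 probe passed the test (adjusted p = 0.0548 for probe 1), and without the pre-miR-197 arrays probe 2 did not.

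STAT2, which carries the transactivation domain of the interferon-stimulated transcription complex, rose in the order A549, PC14, PC14CDDP, and each line stood apart from the next. Its level was 2.14 to 2.37 in A549, 2.58 to 2.80 in PC14 and 2.92 to 3.56 in PC14CDDP, with no overlap. The fitted log2 difference was 0.57 for PC14CDDP against PC14 (SE 0.10, limma adjusted p = 0.00148), -0.44 for A549 against PC14 (adjusted p = 0.00377) and -1.01 for A549 against PC14CDDP (adjusted p = 2.6e-05). JAK2, the kinase of the receptors for growth hormone and erythropoietin, had levels of -1.94 to -1.20 in PC14, -1.31 to -0.80 in A549 and -1.09 to -0.88 in PC14CDDP. PC14 and PC14CDDP did not overlap (difference 0.61, SE 0.11, adjusted p = 0.0025), and A549 overlapped both. JAK2 was called higher in A549 than in PC14 by 0.52 (adjusted p = 0.00387), a call lost with the simpler test that the study's methods name (adjusted p = 0.0553).

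JAK1, TYK2 and STAT5B set A549 apart from the other lines and did not pass the test between PC14CDDP and PC14. JAK1, the kinase that most cytokine receptors of class II and of the interleukin-6 type share, had levels of 1.49, 1.43, 0.90 and 1.05 in A549 after pre-miR-197, NC, LNA-miR-197 and LNA-NC. In PC14 they were between -0.64 and -0.13 and in PC14CDDP between -0.59 and -0.35, so that every A549 array was above every array of the other lines. The fitted log2 difference of A549 from PC14 was 1.53 (SE 0.10, limma adjusted p = 2.6e-06), or 2.90-fold, and that from PC14CDDP was 1.65 (adjusted p = 1.4e-06), or 3.15-fold. TYK2, the kinase of the interferon and interleukin-12 receptors, ran the other way with -2.64 to -2.01 in A549 and -1.20 to -0.70 in PC14, a difference of -1.32 (SE 0.19, adjusted p = 0.000377). In PC14CDDP TYK2 was -0.83, -0.97 and -0.76 after pre-miR-197, NC and LNA-NC, but -2.11 after LNA-miR-197, which fell among the A549 arrays. The difference of A549 from PC14CDDP was -1.10 (adjusted p = 0.000962). STAT5B was 0.44 to 0.81 in A549, -0.28 to 0.36 in PC14 and -0.24 to 0.42 in PC14CDDP, and was higher in A549 than in PC14 by 0.61 (adjusted p = 0.000264) and than in PC14CDDP by 0.50 (adjusted p = 0.000745).

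STAT4 and STAT5A were well above background mainly in A549. STAT4, which is best known from T cells and natural killer cells, had a probe 1 signal of 1056, 1090, 897 and 1176 units in A549 after pre-miR-197, NC, LNA-miR-197 and LNA-NC, and of 2.41 to 7.62 units in PC14 and 2.43 to 3.48 units in PC14CDDP, where no array was well above background. With the processed signal, A549 was at least 120-fold higher than PC14 (limma adjusted p = 1.7e-07) and at least 90.4-fold higher than PC14CDDP (adjusted p = 1.2e-07). These sizes hold for that background correction only, and with normexp the log2 differences were 3.97 and 3.94, below both bounds. Probe 2 of STAT4 was dimmer, with 34.1 to 42.8 units in A549 and no array above background elsewhere, and gave bounds of at least 4.48-fold and at least 3.36-fold, where normexp gave log2 differences of 0.78 and 0.60. For a bound, each dim array was set to its own value or to that of the dimmest probe still well above background there, whichever was higher, and the mean of the brighter line was divided by the mean of these. The STAT4 probes entered the test only because of A549, and STAT5A with 4 of its 5 arrays above background from A549, so these probes had to differ and their calls are a description. All other bounds given here likewise rest on the processed signal. Of the 9 leukocyte markers, 7 were well above background on 4 of 4 arrays of A549, 6 of PC14 and 5 of PC14CDDP. Between A549 and PC14, 5 of the 8 tested were higher in A549 and 1 was lower, with CD14 higher by 4.34 and ITGAM by 2.94 on the log2 scale. Their part in the STAT4 level was not tested. STAT5A had signals of 24.9, 19.4, 101 and 43.5 units in A549, and none of the PC14 arrays was above background, which sets A549 at least 4.38-fold higher (limma adjusted p = 0.00515), where normexp gave a log2 difference of 0.94. In PC14CDDP a single array, that of pre-miR-197, was above background at 71.1 units, beside 3.08, 2.68 and 2.05 units on the others. A549 and PC14CDDP thus overlapped at STAT5A, and the call between them (difference 2.66, adjusted p = 0.0343) was lost under 8 of 13 alternatives, among them leaving out the arrays of NC, LNA-NC or LNA-miR-197.

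Against PC14, 8 of the 11 member probes were higher in A549 and 2 were lower, beside 67.4% of all probes called in either direction, 34.3% higher and 33.1% lower. Against PC14CDDP 7 were higher and 2 lower, beside 70.1% of all probes, 35.2% higher and 35% lower. Both counts of higher probes hold the 3 probes of STAT4 and STAT5A that had to differ, so nothing is read from them. Of the 8 member probes well above background on all 12 arrays, 5 were higher and 2 lower in A549 than in PC14. Of all 24609 probes under that filter, 8609 were higher and 9327 lower. Against PC14CDDP 4 of the 8 were higher and 2 lower, beside 8393 higher and 10157 lower of all 24609. Whether the members differ in this from other probes was not tested. STAT3 probe 1 did not pass the test between A549 and PC14 (log2 difference 0.14, limma adjusted p = 0.433), while probe 2 was higher in A549 by 0.66 (adjusted p = 0.00711), so the probes of this gene disagreed. Against PC14CDDP both were higher in A549, by 0.77 and 1.22 (adjusted p = 0.00214 and 0.000221).

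**Figure D2:**
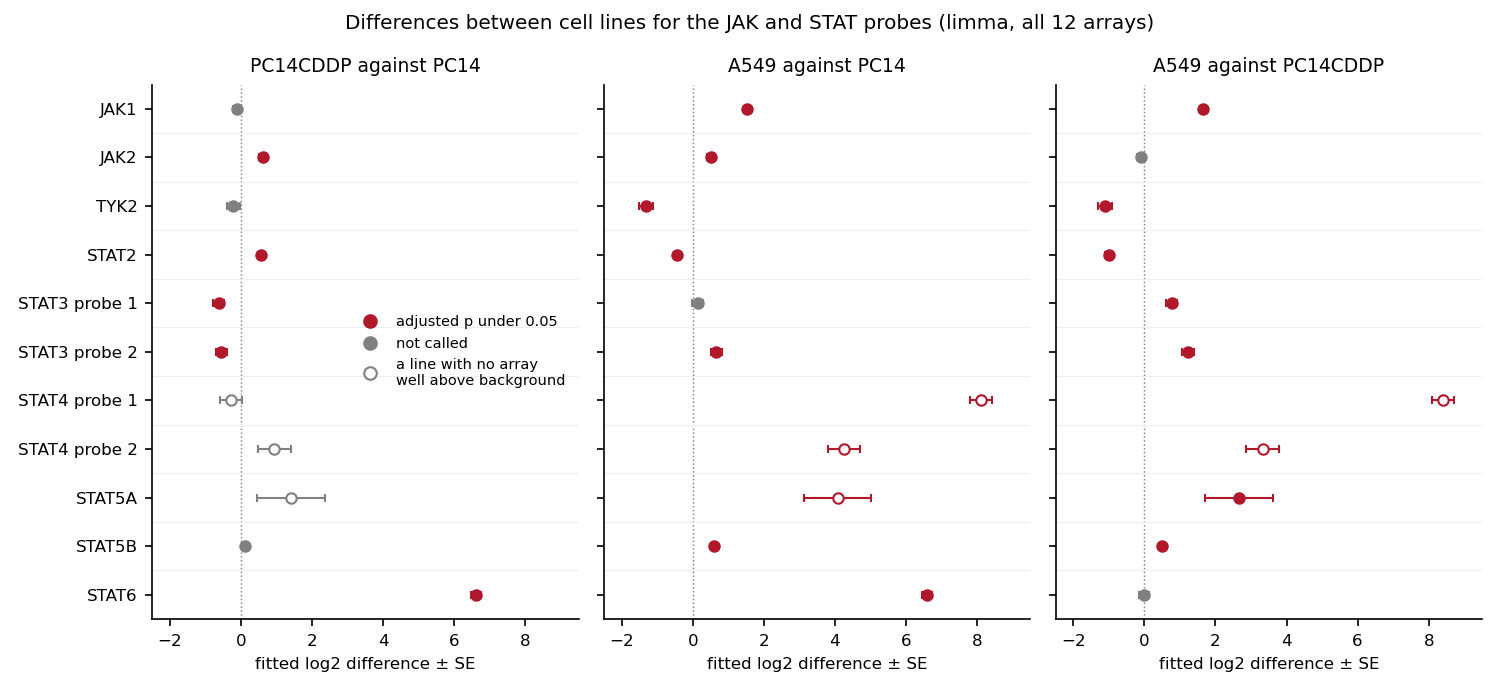
Fitted log2 difference of each JAK and STAT probe between the lines, with its standard error as a horizontal bar, from limma over all 12 arrays. Red points passed an adjusted p of 0.05, grey points did not, and open points have a line in which no array was well above background. STAT6 was high in PC14CDDP and A549 against PC14 by 6.62 and 6.60, and near 0 between PC14CDDP and A549.

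The RefSeq promoters of the members (GRCh38.p14, from 250 bases before to 50 after a start site, 17 promoters for all 9 genes) were searched for the palindrome that STAT dimers bind, TTCNNNGAA and its spacings TTCNNGAA and TTCNNNNGAA, which read the same on both strands. A match to any of these was found in 5 of 17 member promoters, from 4 of the 9 genes, and in 19.9% of all promoters. Each match is shown with 8 bases on either side and the motif in capitals. They lie at chr17:42388558-42388581 (STAT3, minus strand), chr1:64966759-64966782 (JAK1, minus strand), chr2:191151631-191151654 and chr2:191151132-191151155 (STAT4, minus strand) and chr17:42287202-42287227 (STAT5A, plus strand).
STAT3: gctggcctTTCATGAAttatgcat
JAK1: tttctagaTTCTAGAAtctagagg
STAT4, first start site: ctctgtgaTTCTAGAAcaggctga
STAT4, second start site: gttagcatTTCTAGAAtagagtgg
STAT5A: ttttttttTTCCTCTGAAgttaaaag
The motif of STAT3 starts 131 bases before the start site and that of JAK1 225 bases before it. The promoters of STAT6, STAT2, JAK2, STAT5B and TYK2 held none of these letters in this window. A match is a description of the sequence and not evidence of binding.

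The other genes of the pathway were described between PC14CDDP and PC14 by their role, with the brightest probe for each gene, beside 48.3% of all 24857 genes called. Among the receptors that use JAKs, 14 of 27 tested were lower in PC14CDDP and 2 were higher, beside 23.3% and 25% of all genes, with a median log2 difference of -0.55 against 0.04 for all genes. IL27RA, a receptor chain for interleukin-27, was lower by 2.50 (limma adjusted p = 6.0e-05). CNTFR, which binds ciliary neurotrophic factor, was lower by 2.26, but its signal was above background on 3 PC14 arrays and on no PC14CDDP array, which gives at least 1.05-fold. OSMR and IL6ST, chosen after their values were seen because they are signaling chains of the interleukin-6 family, were lower by 2.24 and 0.62 (adjusted p = 2.8e-05 and 0.0178). The 2 receptors that were higher were IL7R, the interleukin-7 receptor, at least 23.3-fold, and IL22RA1, a chain of the interleukin-22 receptor, by 1.08 on the log2 scale. Among the inhibitors of the pathway (SOCS and CISH, PIAS and the phosphatases) 10 of 17 were higher in PC14CDDP and 0 were lower, with a median of 0.46. SOCS2, a feedback inhibitor of growth hormone signaling, was higher by 2.84 and the adaptor SH2B3, which restrains JAK2, by 2.71.

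The partners and the downstream genes moved in both directions between these lines, beside 25% of all genes higher and 23.3% lower. Of 8 partners, NMI and STAM were higher by 1.02 and 0.55 on the log2 scale, and IRF9, which joins STAT2 in the interferon-stimulated complex, and SH2B1 were among the 3 lower ones, by 1.28 and 0.76. Of 16 STAT3 target genes tested 7 were higher and 3 lower, with a median of 0.10. CD274, which encodes PD-L1, was higher by 2.79 (limma adjusted p = 2.8e-05) and FOS by 1.13, while VEGFA was lower by 1.91 (adjusted p = 0.000115) and SERPINA3 by 1.43. Of 15 interferon-stimulated genes 3 were higher, OASL by 1.57, IFI6 by 0.66 and IFI35 by 0.47, and 2 were lower, IFIT1 by 1.40 and IFI27 by 1.22. Members of these lists that were well above background in 1 line alone entered the test through that line.

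**Figure D3:**
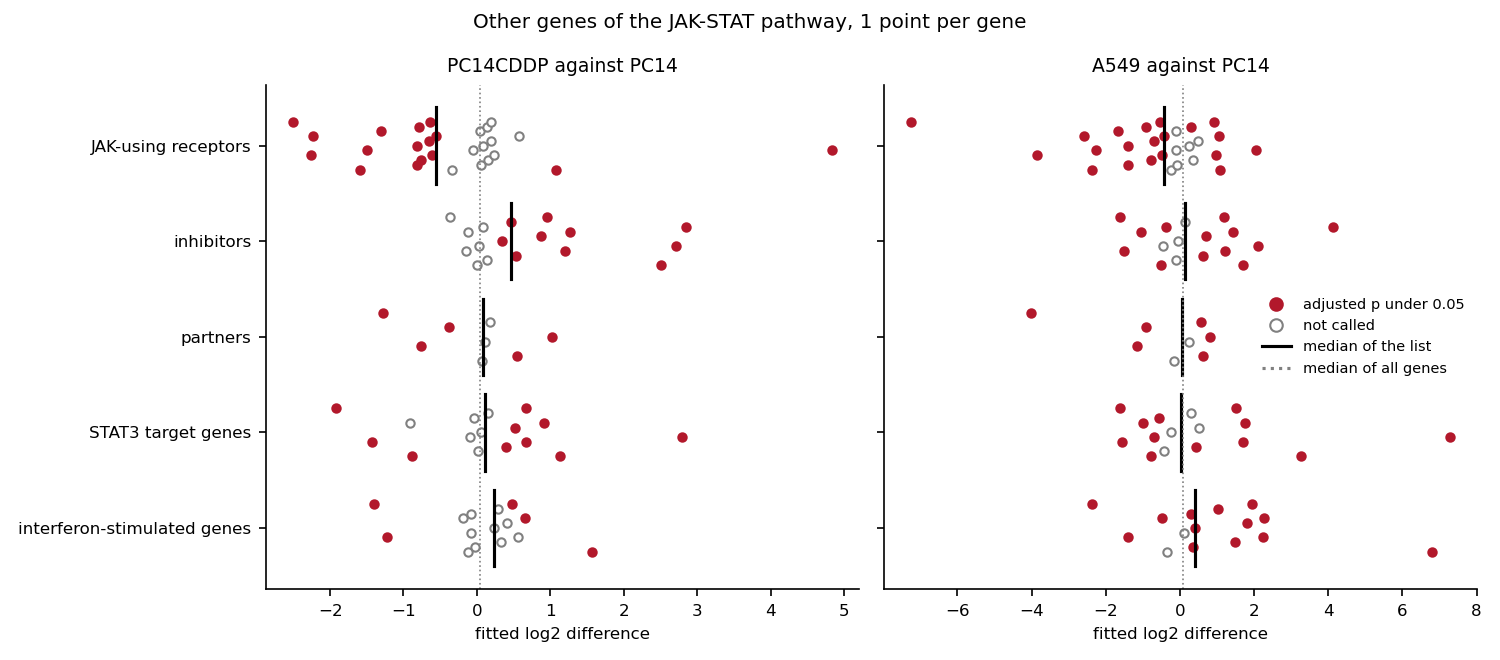
Fitted log2 differences of the pathway genes by role, with 1 point per gene, for PC14CDDP against PC14 and A549 against PC14. Red points passed the test, black bars are list medians and the dotted line is the median of all genes. Receptors lay mostly below 0 in PC14CDDP with a median of -0.55, and inhibitors mostly above it with a median of 0.46.

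Between A549 and PC14, 14 of 27 receptors were lower in A549 and 6 were higher, beside 68% of all genes called, 32.3% lower and 35.7% higher. GHR, the growth hormone receptor, was at least 36.5-fold higher in PC14 than in A549, where no array was above background, and IL10RA, a chain of the interleukin-10 receptor, had a log2 difference of -3.85. IL6R, the binding chain of the interleukin-6 receptor, was higher in A549 by 2.05 and IL13RA1, which pairs with the interleukin-4 receptor, by 1.07. Of the 17 inhibitors 8 were higher, led by the phosphatase PTPN6 at 4.13 and SOCS2 at 2.11, and 5 were lower, led by PIAS2 at -1.62 and SOCS1 at -1.52. Among the partners 3 were higher and 3 lower, with STAP2, an adaptor that binds STAT proteins, at -4.01, IRF9 at -1.16, NMI at 0.81 and CREBBP at 0.62. In A549, STAP2 was above background on 3 of 4 arrays and IL10RA on 2 of 4. PTPN6 had a mean level of -5.63 in PC14. The sizes of the STAP2, IL10RA and PTPN6 differences thus rest on signals near background. Of the STAT3 target genes 6 were higher and 6 lower, and the acute-phase genes FGB and SAA1 were at least 52.0-fold and at least 4.24-fold higher in A549, while BCL2 and VEGFA had log2 differences of -1.61 and -1.56. Of the interferon-stimulated genes 10 were higher and 3 lower. OAS1 was at least 40.4-fold higher in A549 and OASL higher by 2.26 on the log2 scale. IRF7 was lower by 2.38 and ISG15 by 1.40. FGB, SAA1 and OAS1 were well above background in A549 alone and entered the test through it. They had to differ, so their calls are a description, and the counts of higher genes include them.

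Fewer member probes were called between transfections than between lines. After pre-miR-197, 0 of the 11 member probes were called against NC by limma, beside 0.086% of all 33714 probes, and 2 had an unadjusted p under 0.05. These were STAT5B and STAT2. STAT5B, which carries growth hormone signals, had log2 ratios to NC of -0.26, -0.55 and -0.40 in A549, PC14 and PC14CDDP. They averaged -0.40 with an SD of 0.15 over the lines (limma adjusted p = 0.127). With normexp background correction it was called (adjusted p = 0.0426). STAT2 had ratios of -0.18, -0.18 and -0.64 in the same order, lower in all 3 lines, with an adjusted p of 0.217. The STAT3 probes had ratios of -0.42, 0.14 and 0.39 at probe 1 and of -0.53, -0.05 and -0.15 at probe 2, so that A549 was the lowest line at both, and neither mean passed the test. STAT5A was 4.36 higher on the log2 scale in PC14CDDP, which is the single array above background described above, and STAT5A in A549 differed by 0.36. JAK1 had ratios of 0.06, 0.04 and 0.07, and JAK2, TYK2 and STAT6 had ratios between -0.27 and 0.18 with both signs.

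After LNA-miR-197, STAT6 and STAT5B were called lower than after LNA-NC, 2 of 11 member probes, beside 7.99% of all probes in either direction and 3.96% lower. STAT6 fell in each line, with log2 ratios of -0.36, -1.08 and -1.18 in A549, PC14 and PC14CDDP. They averaged -0.87 with an SD of 0.45 over the lines (limma SE 0.16, adjusted p = 0.0254), or 1.83-fold lower, and in PC14 the signals behind the ratio were 13.8 against 28.5 units. STAT5B had ratios of -0.28, -0.46 and -0.56, a mean of -0.44 ± 0.14 (SE 0.10, adjusted p = 0.0366), or 1.35-fold lower. With any 1 line left out limma called 0 of all 33714 probes, so neither call could be made, and the mean log2 difference was then between -1.13 and -0.72 for STAT6 and between -0.51 and -0.37 for STAT5B. Set against NC in place of LNA-NC, an alternative chosen after the data were seen, STAT6 was lower by 0.78 (adjusted p = 0.0215) and STAT5B by 0.56 (adjusted p = 0.0143). TYK2 had ratios of -0.63, -0.07 and -1.35, lower in all 3 lines, and did not pass the test (mean -0.68, adjusted p = 0.0945). JAK1 was -0.15, -0.32 and -0.21, and JAK2 was 0.21, 0.29 and 0.10, each of 1 sign in all lines without passing the test (adjusted p = 0.23 and 0.366). STAT3 had ratios of 0.24, 0.23 and -0.18 at probe 1 and of 0.15, -0.05 and -0.72 at probe 2. The means of its probes had opposite signs, 0.10 and -0.20, and neither passed the test (limma adjusted p = 0.766 and 0.535). STAT5A had a log2 ratio of 1.20 in A549, the line in which it was above background on both arrays, and STAT4 had ratios of -0.42 and -0.18 at its probes there.

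The mimic and the inhibitor did not move STAT5B in opposite directions, since its ratios were below 0 in all 3 lines after both. The difference between the inhibitor effect and the mimic effect was called for 0 of the 11 member probes by limma, beside 0.0504% of all probes, and 1 probe, STAT6, had an unadjusted p under 0.05 (log2 difference -0.80, SE 0.23, adjusted p = 0.137). For STAT5B that difference was -0.03 (SE 0.14, adjusted p = 0.922). The control transfections were also compared with each other. Between LNA-NC and NC limma called 0 of the 11 member probes, beside 0.46% of all probes, with 0 at an unadjusted p under 0.05, and the fitted log2 differences lay between -0.23 and 0.14. STAT6 differed by 0.09 and STAT5B by -0.12 between the controls.

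Few of the other pathway genes were called after the transfections. After pre-miR-197 the receptor IL22RA1 was lower by 1.94 on the log2 scale (limma adjusted p = 0.0115), the 1 call among 27 receptors, and 0 of 17 inhibitors, 0 of 8 partners and 0 of 16 STAT3 target genes were called, beside 0.113% of all genes. The 15 interferon-stimulated genes tested had a median of -0.49, and 0 of them were called. After LNA-miR-197, beside 7.74% of all genes, SOCS7 and PIAS2 among the inhibitors were higher by 1.24 and 0.63, the coactivator EP300 by 0.62 and CD274 by 1.17, IFI27 was lower by 0.93, and 0 of 27 receptors were called. Between LNA-NC and NC the receptor chain IL20RB was higher by 1.96 (adjusted p = 0.0242), beside 0.515% of all genes, and it was the 1 call among these lists.

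The other members had as neighbors in likeness over the 12 arrays, by the highest Pearson's r among 24857 genes, ANXA9 and MMP7 for STAT4 (r = 0.998 and 0.997), SLC22A31 and HOXB-AS3 for JAK1 (0.994 and 0.993), PIN1P1 and ERI3 for TYK2 (0.991 and 0.971), OSBPL2 and PPM1K for STAT2 (0.977 and 0.975), PEG10 and WDR11 for STAT5B (0.970 and 0.962), C19orf68 and LRP11 for STAT3 (0.951 and 0.943) and TTC9B for JAK2 (0.930). These points share lines and slides. Near STAT4 on the chromosome, CAVIN2, which shapes caveolae, was at least 95.8-fold higher in A549 than in PC14 with its probe 804 kb away, whereas NAB1 and NABP1 were lower by 0.32 and 0.88 on the log2 scale. Near JAK2, RCL1 was higher in PC14CDDP than in PC14 by 1.24 (limma adjusted p = 2.1e-05) while CDC37L1 and PLPP6 on the same side differed by 0.44 and -0.21 without passing the test (adjusted p = 0.0723 and 0.25). On the other side RLN2 was above background on no PC14 array and on 2 PC14CDDP arrays. Its mean level in PC14CDDP, -6.317, lay below the bound for PC14, -6.265, so no size of a difference is given. INSL4 and RLN1 were above background on no array of either line. Near JAK1, the 3 nearest named genes on the lower side, RAVER2, CACHD1 and ROR1, were lower in PC14CDDP by 0.95, 0.85 and 3.39, DNAJC6 and LEPROT on the other side were lower by 0.40 and 0.45, and JAK1 itself differed by -0.12 (adjusted p = 0.342). STAT3, STAT5A and STAT5B lie together, with probes of STAT5A and STAT3 10.9 kb apart, and between PC14CDDP and PC14 STAT3 was lower by 0.62 at probe 1 while STAT5B differed by 0.11 (adjusted p = 0.329). Near TYK2, FDX1L, CDC37, PDE4A, KEAP1 and ICAM3 differed between A549 and PC14 by -0.82, -0.99, -0.97, -0.90 and -0.21, beside -1.32 for TYK2. RAVER1 differed by 0.48, and each of these genes passed the test (limma adjusted p under 0.05). A shared cause was not tested.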

How the data were processed

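Messenger RNA of 12 transfections (3 lines, 4 transfections) was read on one-color arrays of 1 array each. The authors deposited the scanner output, made per the file headers with version 10.7.3.1 of Agilent's Feature Extraction software. It holds an intensity per spot (mean, background and background-corrected processed signal) and other columns that flag spots. The deposited value table equals the processed signal on 100% of spots. The normalization of the arrays is not given in the sources used here. Control spots and outlier spots were left out, spots of a probe were averaged, and values were divided by the array's 75th percentile before log2 was taken. Names came from the array's design and, for 28174 of 50599 probes, from RefSeq accessions. Probe positions are those of the files (hg19), and whether a probe lies in an exon or UTR was not looked up, since no annotation of that build was used here. Probes well above background on at least 3 arrays and with no missing value (33714) were fitted by limma 3.58.1 in R 4.3.3 with transfection and line as terms, eBayes and Benjamini-Hochberg adjustment over all of them. The number of arrays limits the precision. The line is the replicate and the pairing block: deviations of arrays of the same line from the transfection means correlated at 0.845 to 0.947. The 4 arrays of a line are cultures of 1 line, so p-values between lines measure the spread between these arrays only. Fits were tested on simulated arrays. Members, gene lists and the rule for named genes (all member probes, the 2 most raised and 2 most lowered called genes of a list, the 2 genes most like a member and the 3 nearest named genes on each side) were chosen with earlier results of these data known. Gene lists were described by counts and medians. Alternatives were quantile normalization, normexp (offset 50), the deposited table, no filter, a filter on all 12 arrays, 1 probe per gene, the methods' t-test, an intensity trend with a robust prior, fewer arrays, each line or transfection left out, no block and the slide as a term. Python 3.11.15 with pandas 2.3.3, scipy 1.17.1 and matplotlib 3.10.9 was used. No column of other samples was present (0). Other assays of the study were not analysed here. Some genes of the lists and neighborhoods are not reported here.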

Additional observations from a re-analysis of the deposited data

Results flagged for a closer look

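Among 33 sets of 4 arrays (11 probes in 3 lines), 4 had 1 array far from the other 3 by Dixon's criterion at the 95% level, and chance alone gives about 1 in 20 such sets. In PC14CDDP the LNA-miR-197 array was low at STAT6 (0.73, next array 1.74) and at TYK2 (-2.11, next array -0.97), and the pre-miR-197 array was high at STAT5A (-3.32, next array -7.68). In A549 the LNA-miR-197 array was low at STAT4 probe 1 (0.35, next array 0.71). JAK1 moved in opposite directions in all 3 lines, up after pre-miR-197 and down after LNA-miR-197. The effects differed by -0.28 on the log2 scale, and limma did not call this difference (adjusted p = 0.378).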

How the results depend on the processing

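Of 77 member differences, 26 were called, and none of these (0) changed sign under any alternative. Quantile normalization, normexp, NC in place of LNA-NC and leaving out a line or transfection can change the estimate and so its sign. The other alternatives return the same estimate in this balanced design, so their signs were fixed in advance. The deposited table equals the processed signal, so it could change no call either. Of the 24 called line differences, 20 were called under every alternative run for them. The others (STAT3 at both probes between PC14CDDP and PC14, JAK2 between A549 and PC14, STAT5A between A549 and PC14CDDP) were lost under at least 1. The 20 include both STAT4 probes against both lines and STAT5A between A549 and PC14. Those probes passed the filter wholly or mainly through A549 and had to differ, so their calls remain a description. They were also absent from the fit with the filter on all 12 arrays. Both calls after LNA-miR-197 were lost, which leaves 0 of 11, with no filter on dim probes, with the methods' t-test, with only the arrays of the comparison, with no replicate block and with the slide in place of the line, and without any 1 line (0 in each case). Under the methods' t-test, in the fit to the compared arrays alone and without any 1 line, 0 of all 33714 probes were called, with no block 3 and with the slide 5, so these losses say nothing particular to STAT6 or STAT5B. Over all alternatives STAT6 lay between -1.13 and -0.60 and STAT5B between -0.56 and -0.37. After pre-miR-197, normexp gave 1 call in place of 0 (STAT5B). Between PC14CDDP and PC14, leaving out each transfection in turn gave 3 to 5 member calls, the lowest without NC. The fit to only the arrays of the comparison was not run for the inhibitor against the mimic effect, since it uses all 12. Over all probes the number called moved from 29 to between 0 and 636 after pre-miR-197, from 2694 to between 0 and 5010 after LNA-miR-197, from 155 to between 0 and 325 between the controls, from 17 to between 0 and 867 for the difference of effects, and from 16448 to between 10851 and 19128 between PC14CDDP and PC14. With normexp the STAT6 difference of PC14CDDP from PC14 was 4.50 in place of 6.62, and that of STAT4 probe 1 between A549 and PC14 was 3.97 in place of 8.10. STAT6 in PC14 and STAT5A in A549 were read close to background.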
